A study of Mus musculus with 6 samples.

Results

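Interferon-stimulated genes encode the antiviral effectors, nucleic acid sensors and transcription factors that cells produce after an interferon signal. The set examined here comprises 39 named genes, chosen by symbol, and all 39 were found among the 55335 genes of the count table. Of these, 38 had enough reads to be tested, and the exception was Oas1g, whose reads are given below. The knockout libraries were whole lungs from 3 Gata4 CKO mouse embryos at embryonic day 18, of genotype Prx1Cre;Gata4 F/D, with one floxed and one deleted Gata4 allele. The control libraries were whole lungs from 3 embryos of the same age, of genotype Prx1Cre;Gata4 F/+, with one floxed and one intact allele. Both groups thus carry the Cre transgene and a floxed allele, and lungs without Cre were not part of the comparison. Prx1Cre is active in the lateral plate mesoderm, and the submitters describe loss of Gata4 in the forming diaphragm, with a defective diaphragm and hypoplastic lungs. The comparison addresses what gene expression goes with that hypoplasia.

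Type I interferons bind the receptor chains Ifnar1 and Ifnar2, whose kinases Jak1 and Tyk2 activate STAT proteins, STAT2 among them. With IRF9 they form a complex that binds the interferon-stimulated response element, a repeat of GAAA blocks in the promoters of the induced genes. Irf7, one of the induced genes, in turn raises interferon production, and Usp18 and Socs1 restrain the receptor. In the lung the response is best known from respiratory virus infection, and a low level is also present without infection.

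Total counts ranged from 15156415 to 30848948 reads per library. The column labels hold a number of unstated meaning, which was 4229 in Gata4 CKO 1, control 1 and control 2, 4723 in Gata4 CKO 2 and 3, and 4503 in control 3. Gata4 itself stood at 5.72, 5.03 and 3.20 CPM (reads relative to the TMM-scaled library size) in Gata4 CKO 1, 2 and 3 and at 3.92, 3.02 and 2.95 CPM in controls 1, 2 and 3, so the targeted gene was not lower in the libraries labelled Gata4 CKO. Counts over the whole gene can include exons outside the deleted part. Xist, a transcript of female cells, had 10322 and 50609 reads in Gata4 CKO 1 and 3 and 21820 in control 2, and at most 16 in the other libraries, so both groups held both sexes. Gata4 CKO 1 stood apart from the other libraries in a trend with gene length. Exonic length and GC content together accounted for a share of 0.268 of the variance of its deviations from the mean over libraries, against 0.0198 to 0.110 in the other 5. Sftpc, the surfactant protein C gene that marks alveolar epithelium, stood at 16538, 11132 and 9928 CPM in Gata4 CKO 1, 2 and 3. In controls 1, 2 and 3 it stood at 6526, 6037 and 9729 CPM, so control 3 lay close to Gata4 CKO 3 (edgeR adjusted p = 0.543).

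The response element was looked for in the promoters of the members as GAAA, any 2 bases and GAAA, on either strand, so that on the opposite strand it reads TTTC, any 2 bases and TTTC. Overlapping matches were counted. RefSeq windows on GRCm38.p6, from 250 bases before to 50 bases after a gene's start, were at hand for 29 members in 33 windows. Of the 29 members, 17 held the element in at least 1 window, against 3.99% of all 27025 genes with such a window. The motif TTCNNNGAA, bound by STAT dimers after interferon gamma, occurred in 6 of the 29, against 9.55% of all genes. Isg15, Ifit1, Ifit3, Oas1a, Oas1g and Bst2 are shown as examples of the 8 members that hold the element and were more than 2-fold higher in Gata4 CKO 1 than the mean of Gata4 CKO 2 and 3. The other two, Oas3 with 1 match and Ifitm3 with matches after its start, are not printed. Gbp3 and Gbp7 are shown beside them because they hold it too, at ratios of 1.20 and 0.559. Each sequence is the 160 bases before the gene's RefSeq start, read along the gene's own strand, and capitals mark every match on either strand. The RefSeq start can differ from that of the gene model used for position and exonic length. For Ifit1 and Gbp3 the printed sequence therefore extends into the gene model.
Isg15: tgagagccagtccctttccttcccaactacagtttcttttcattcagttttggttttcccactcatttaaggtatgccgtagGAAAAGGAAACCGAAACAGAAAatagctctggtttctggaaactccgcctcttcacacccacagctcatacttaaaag
Ifit1: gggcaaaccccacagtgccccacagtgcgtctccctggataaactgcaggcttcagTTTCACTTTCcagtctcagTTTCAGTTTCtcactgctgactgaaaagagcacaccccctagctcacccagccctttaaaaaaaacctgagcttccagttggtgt
Ifit3: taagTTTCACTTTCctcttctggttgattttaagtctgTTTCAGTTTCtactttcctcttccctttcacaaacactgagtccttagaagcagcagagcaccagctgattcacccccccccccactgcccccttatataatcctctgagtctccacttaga
Oas1a: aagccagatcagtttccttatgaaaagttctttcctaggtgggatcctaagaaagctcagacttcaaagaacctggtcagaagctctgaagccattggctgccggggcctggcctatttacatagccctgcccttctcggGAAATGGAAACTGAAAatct
Oas1g: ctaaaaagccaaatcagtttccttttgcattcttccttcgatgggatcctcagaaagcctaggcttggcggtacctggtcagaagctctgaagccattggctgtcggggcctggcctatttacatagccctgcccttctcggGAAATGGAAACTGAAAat
Bst2: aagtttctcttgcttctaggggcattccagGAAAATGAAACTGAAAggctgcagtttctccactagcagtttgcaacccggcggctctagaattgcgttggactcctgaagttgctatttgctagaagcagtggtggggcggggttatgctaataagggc
Gbp3: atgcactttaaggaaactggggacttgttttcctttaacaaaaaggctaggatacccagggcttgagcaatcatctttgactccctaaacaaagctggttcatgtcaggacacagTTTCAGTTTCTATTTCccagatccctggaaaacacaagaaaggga
Gbp7: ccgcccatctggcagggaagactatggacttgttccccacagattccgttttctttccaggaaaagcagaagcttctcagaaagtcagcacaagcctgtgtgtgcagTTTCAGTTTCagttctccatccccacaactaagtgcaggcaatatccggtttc
The windows lie at chr4:156200819-156200978 (Isg15, minus strand), chr19:34640729-34640888 (Ifit1, plus), chr19:34583369-34583528 (Ifit3, plus), chr5:120907526-120907685 (Oas1a, minus), chr5:120887614-120887773 (Oas1g, minus), chr8:71537473-71537632 (Bst2, minus), chr3:142559884-142560043 (Gbp3, plus) and chr3:142530176-142530335 (Gbp7, plus). Isg15 carries 3 overlapping matches, from position -78 to -57 relative to its start. Oas1a and Oas1g carry the same capital letters close to their starts, and at an offset of 2 bases 122 of 158 bases of their windows were identical. Of the members more than 2-fold higher in Gata4 CKO 1, 8 of the 13 with a window held the element, as did 9 of the 16 others.

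Most of the interferon-stimulated genes were highest in 1 of the 6 lungs, Gata4 CKO 1, while in their median Gata4 CKO 2 and 3 lay close to the controls. Summed over the 39 members, the level was 992 CPM in Gata4 CKO 1, 710.0 CPM in Gata4 CKO 2 and 686 CPM in Gata4 CKO 3, against 730 CPM, 634 CPM and 693 CPM in controls 1, 2 and 3. On the log2(CPM + 0.5) scale, the median difference of the 38 tested members from the control mean was 0.91 in Gata4 CKO 1, 0.02 in Gata4 CKO 2 and -0.03 in Gata4 CKO 3, and it was 0.10, -0.14 and 0.0043 in controls 1, 2 and 3. Over all 17075 tested genes the same median was -0.0059 in Gata4 CKO 1. Gata4 CKO 1 held the highest level of the 6 libraries for 25 of the 38 members, against 32.8% of all tested genes, and the lowest for 6, against 33.3%.

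**Figure D1:**
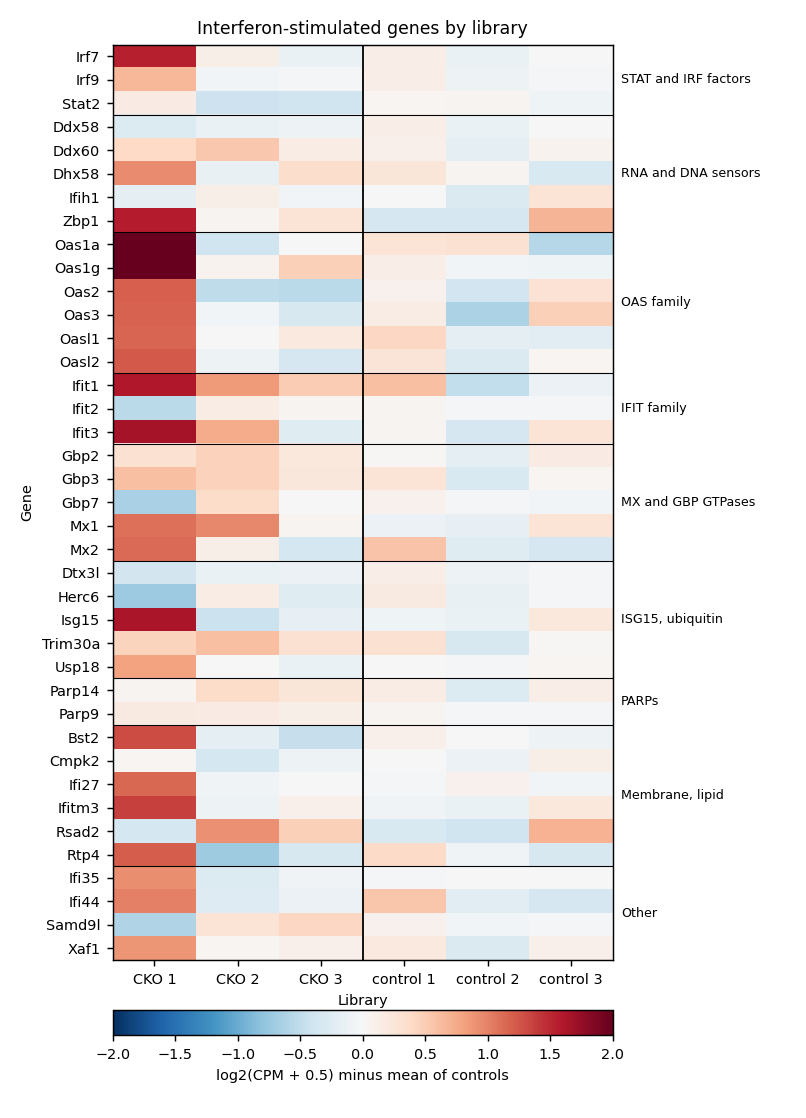
Level of each of the 39 interferon-stimulated genes (rows, grouped by role) in each library (columns, Gata4 CKO left of control), as log2(CPM + 0.5) minus the mean of the 3 controls. Red fills most of the Gata4 CKO 1 column, with blue at Ifit2, Gbp7, Herc6, Samd9l, Dtx3l and Rsad2, while Gata4 CKO 2 and 3 are mostly pale.

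No member passed the test of Gata4 CKO against control. In edgeR, 0 of 38 members had an adjusted p under 0.05, as did 0 (0%) of the 17075 genes tested, and the smallest adjusted p of a member was 0.546. At an unadjusted p under 0.05, 2 members were higher (Ifit1 and Mx1) and 0 lower, against 3.77% and 4.91% of all genes. DESeq2 and limma-voom also called 0 members, although DESeq2 called 50 genes higher (0.322% of the 15535 to which it gave an adjusted p) and 77 lower. Members with few reads, among them Mx1, Oas3, Oasl1 and Zbp1, had no adjusted p in DESeq2 and could not be called there. Of the 38 members, 30 had a positive log2 fold change, against 51.5% of all genes, and their median was 0.37, against 0.01 over all genes. Without Gata4 CKO 1, 19 of 38 were positive, against 50% of all genes, the median was -0.00027, and 0 members passed (smallest adjusted p 0.0753, Stat2), although edgeR then called 115 genes, or 0.656%. In bulk libraries, fewer cells of a type and less RNA per cell cannot be told apart, and the same holds for more of either.

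**Figure D2:**
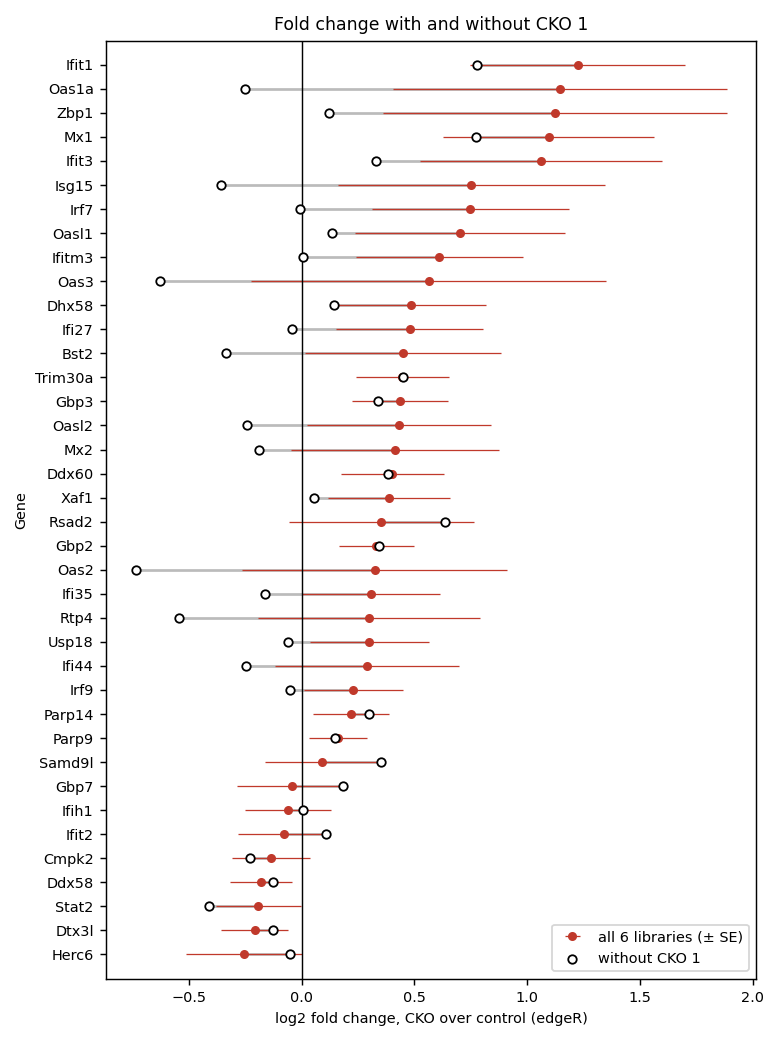
Log2 fold change of Gata4 CKO over control (x axis) for each tested member (y axis), from all 6 libraries (red points, bars ± SE) and without Gata4 CKO 1 (open circles). For 14 members a positive value turned negative when Gata4 CKO 1 was left out, the widest shifts being in the Oas genes and Isg15.

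Gata4 CKO 1 was then set against the 2 other Gata4 CKO lungs. This is a description of 1 library, without a test, because it was singled out for its values. Of the 38 members, 17 were more than 2-fold higher in Gata4 CKO 1 than the mean of Gata4 CKO 2 and 3, against 3.93% of all tested genes, and 1 (Rsad2) was more than 2-fold lower, against 11.7%. The median ratio was 1.81 for the members and 1.00 for all genes. Against controls 1 and 2, which share its label number, 15 of 38 were more than 2-fold higher, against 4.16% of all genes, with a median ratio of 1.80. In all, 14 members exceeded 2-fold in both comparisons. With the label number as a term in edgeR, the group difference rests on Gata4 CKO 1 against controls 1 and 2 alone. That fit called 26 of 38 members, 21 higher and 5 lower, against 19.3% and 23.5% of all genes, which describes this 1 Gata4 CKO library.

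Among the transcription factors, 1 of 3 exceeded 2-fold in Gata4 CKO 1. Irf7, the induced factor that amplifies interferon output, stood at 24.2, 8.67 and 7.20 CPM in Gata4 CKO 1, 2 and 3 and at 8.77, 7.15 and 7.89 CPM in controls 1, 2 and 3. Gata4 CKO 1 lay above all controls and Gata4 CKO 2 and 3 lay within the control range, and the level of Gata4 CKO 1 was 3.05 times the mean of the other Gata4 CKO lungs. The group difference was 0.75 ± 0.44 on the log2 scale (SE, edgeR adjusted p = 0.674) with all libraries and -0.0050 without Gata4 CKO 1. Irf9, the DNA-binding partner of the STAT complex, stood at 74.7, 44.9 and 45.3 CPM in Gata4 CKO 1, 2 and 3 and at 51.5, 43.4 and 45.7 CPM in the controls, so again 1 library was high. Stat2, the partner of Irf9, had 48.7, 32.4 and 32.7 CPM in Gata4 CKO 1, 2 and 3 against 44.3, 45.0 and 40.5 CPM in the controls. Gata4 CKO 2 and 3 thus lay below every control for Stat2, with a log2 fold change of -0.41 without Gata4 CKO 1 (edgeR adjusted p = 0.0753).

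Of the 5 sensors, 1 exceeded 2-fold in Gata4 CKO 1. Zbp1, which senses Z-form nucleic acid and can trigger cell death, had 46, 7 and 19 reads in Gata4 CKO 1, 2 and 3 and 5, 5 and 30 reads in controls 1, 2 and 3, or 2.25, 0.463 and 0.627 CPM against 0.233, 0.240 and 0.983 CPM. Control 3 was the second highest library, so the groups overlapped (log2 fold change 1.12 ± 0.76, SE, edgeR adjusted p = 0.711). Dhx58, a regulator of the RNA helicase sensors, stood at 8.45, 3.71 and 5.48 CPM in Gata4 CKO lungs against 5.04, 4.37 and 3.28 CPM in control lungs. Ifih1, the sensor of long double-stranded RNA, was at 17.4, 21.5 and 19.0 CPM in Gata4 CKO lungs, inside the control range of 16.2 to 24.04 CPM. Ddx58, the sensor of triphosphate-ended RNA, was lowest in Gata4 CKO 1 at 42.7 CPM, with 47.1 and 48.2 CPM in Gata4 CKO 2 and 3 and 47.5 to 57.2 CPM in control lungs. Ddx60, a helicase linked to RNA sensing, was at 5.03, 5.63 and 4.16 CPM in Gata4 CKO lungs, above all controls (4.01, 3.21 and 3.93 CPM), with a log2 fold change of 0.40 ± 0.23 (SE, edgeR adjusted p = 0.666).

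The oligoadenylate synthetase (OAS) family, which makes the messenger that activates RNase L, had all of its tested genes high in 1 library. All 5 tested genes of the family were more than 2-fold higher in Gata4 CKO 1 than the mean of Gata4 CKO 2 and 3, with ratios from 2.51 (Oasl1) to 6.10 (Oas1a). Oas1a, an enzymatically active synthetase, stood at 9.38, 1.26 and 1.82 CPM in Gata4 CKO 1, 2 and 3 and at 2.29, 2.35 and 1.05 CPM in the controls. Gata4 CKO 1 was the high library, and Gata4 CKO 2 and 3 lay within the control range. Oas1g, its neighbour on chromosome 5, had 50, 3 and 13 reads in Gata4 CKO 1, 2 and 3 and 5, 3 and 4 in the controls. Of the 50-base stretches of the Oas1a transcripts, 57.6% also occur in Oas1g, so reads of the pair may be split between them. Oasl2, a synthetase-like gene that is more abundant, had 44.6, 17.4 and 14.7 CPM in Gata4 CKO lungs and 22.4, 15.1 and 19.2 CPM in control lungs. Oas2 stood at 4.98, 1.19 and 1.16 CPM in Gata4 CKO lungs against 2.05, 1.34 and 2.42 CPM in control lungs, so Gata4 CKO 2 and 3 lay below every control. Oas3, the largest synthetase, had 36, 7 and 9 reads in Gata4 CKO lungs against 13, 3 and 27 in control lungs. Without Gata4 CKO 1 the log2 fold changes of Oas2 and Oas3 were -0.73 and -0.63 (edgeR adjusted p = 0.247 and 0.630). Oasl1 stood at 3.27, 1.19 and 1.42 CPM in Gata4 CKO lungs against 1.73, 0.960 and 0.950 CPM in control lungs, and Gata4 CKO 1 was again the one library above all controls.

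The IFIT genes, whose proteins bind viral RNA and block its translation, lie close together on chromosome 19 but did not share one pattern. Ifit1 (chromosome 19, 34640871 to 34650009, plus strand, GRCm38) stood at 4.89, 2.71 and 2.01 CPM in Gata4 CKO 1, 2 and 3 and at 2.19, 0.768 and 1.15 CPM in controls 1, 2 and 3. All Gata4 CKO libraries but the third lay above all controls. The group difference on the log2 scale was 1.22 ± 0.48 with all libraries (SE; adjusted p = 0.546 in edgeR) and 0.78 without Gata4 CKO 1. Ifit3 stood at 6.45, 3.18 and 1.35 CPM in Gata4 CKO lungs against 1.77, 1.247 and 2.16 CPM in control lungs, and 51.2% of its 50-base stretches also occur in its copy Ifit3b. Ifit2 (chromosome 19, 34550694 to 34576419, plus strand) was the reverse, at 17.9, 29.1 and 27.2 CPM in Gata4 CKO lungs against 27.1, 25.8 and 25.4 CPM in control lungs. Gata4 CKO 1 was the lowest library for Ifit2, at 0.635 times the mean of Gata4 CKO 2 and 3.

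Among the GTPases, the Mx genes, which trap viral nucleocapsids, were highest in Gata4 CKO 1, as was Gbp3 of the guanylate-binding proteins, which coat vacuoles of pathogens. Gbp2 and Gbp7 were highest in Gata4 CKO 2. Mx1 had 40, 26 and 21 reads in Gata4 CKO 1, 2 and 3 and 12, 11 and 27 in the controls, or 1.95, 1.72 and 0.693 CPM against 0.560, 0.528 and 0.884 CPM. Gata4 CKO 1 and 2 lay above all controls and Gata4 CKO 3 among them (log2 fold change 1.10 ± 0.47, SE, edgeR adjusted p = 0.570, and 0.77 without Gata4 CKO 1). Mx2, which GENCODE M21 annotates as a polymorphic pseudogene, stood at 9.18, 4.30 and 2.97 CPM in Gata4 CKO lungs against 6.06, 3.26 and 3.01 CPM in control lungs. Gbp7 was lowest in Gata4 CKO 1, at 26.1 CPM with 52.9 and 40.7 CPM in Gata4 CKO 2 and 3, against 39.5 to 43.4 CPM in control lungs. Gbp2 was at 20.03, 22.6 and 18.9 CPM in Gata4 CKO lungs and at 16.4, 14.2 and 18.3 CPM in control lungs. Its groups did not overlap, and they differed by 0.33 ± 0.17 on the log2 scale with all libraries (SE; adjusted p = 0.620 in edgeR) and by 0.35 without Gata4 CKO 1. Gbp3 stood at 13.97, 12.6 and 10.6 CPM in Gata4 CKO lungs against 10.96, 7.20 and 9.27 CPM in control lungs, with overlapping groups and a log2 difference of 0.44 ± 0.21 (SE).

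Isg15, a ubiquitin-like protein that is joined to other proteins, and the genes of ubiquitin-like conjugation differed among themselves. Isg15 (chromosome 4, 156199424 to 156200818, minus strand) stood at 8.50, 1.65 and 2.08 CPM in Gata4 CKO 1, 2 and 3 and at 2.24, 2.16 and 2.85 CPM in controls 1, 2 and 3. Gata4 CKO 2 and 3 lay below every control, and the group difference on the log2 scale was 0.75 ± 0.59 with all libraries (SE; adjusted p = 0.745 in edgeR) and -0.36 without Gata4 CKO 1. Usp18, which removes Isg15 and blocks the receptor, stood at 21.9, 12.4 and 11.3 CPM in Gata4 CKO lungs against 12.3, 12.1 and 12.6 CPM in control lungs. Herc6, the mouse ligase for Isg15, was lowest in Gata4 CKO 1 at 5.62 CPM, with 10.7 and 8.06 CPM in Gata4 CKO 2 and 3 against 8.64 to 11.008 CPM in control lungs. Trim30a, a tripartite motif protein, stood at 16.1, 17.9 and 14.4 CPM in Gata4 CKO lungs against 14.4, 9.21 and 11.8 CPM in control lungs. Its groups just did not overlap, and its log2 fold change was 0.45 with and without Gata4 CKO 1.

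Parp9 and Dtx3l, whose proteins form a ubiquitin ligase complex and whose genes overlap head to head on chromosome 16, did not pass the test, with log2 differences of 0.16 ± 0.13 and -0.21 ± 0.15 (SE; adjusted p = 0.745 and 0.730 in edgeR). Parp9 was at 35.9, 35.5 and 34.4 CPM in Gata4 CKO lungs, above all controls at 32.7, 30.9 and 31.1 CPM. Dtx3l was at 24.3, 28.6 and 29.1 CPM in Gata4 CKO lungs, below all controls at 34.6, 29.3 and 30.7 CPM. Their exons overlap on opposite strands, and whether the counting used strand is not given in the sources used here. Parp14, a related mono-ADP-ribosyltransferase, had overlapping groups (41.3 to 51.4 CPM in Gata4 CKO lungs and 32.7 to 43.8 CPM in control lungs). In all, 4 members lay above all controls in every Gata4 CKO lung (Parp9, Gbp2, Trim30a and Ddx60), against 7.69% of all genes, and 1 (Dtx3l) lay below, against 9.08%. For these 5 members the ratio of Gata4 CKO 1 to the mean of Gata4 CKO 2 and 3 ran from 0.842 to 1.03.

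Of the 6 genes of membrane and lipid effectors, 4 exceeded 2-fold in Gata4 CKO 1 (Ifitm3, Bst2, Ifi27 and Rtp4). Ifitm3, which blocks fusion of viruses with endosomes, stood at 151 CPM in Gata4 CKO 1 and at 54.5 and 62.8 CPM in Gata4 CKO 2 and 3, against 55.2, 53.2 and 67.3 CPM in controls 1, 2 and 3. Bst2, the tetherin that holds budding virus at the cell surface, stood at 61.0, 21.05 and 17.6 CPM in Gata4 CKO lungs against 25.9, 24.4 and 22.6 CPM in control lungs. For Bst2, Gata4 CKO 1 exceeded every control and Gata4 CKO 2 and 3 lay below every control. Ifi27 was at 65.7, 27.9 and 29.0 CPM in Gata4 CKO lungs against 28.6, 31.3 and 28.1 CPM in control lungs. Rtp4, a chaperone of receptors, was at 30.1, 7.55 and 10.006 CPM in Gata4 CKO lungs against 16.7, 12.04 and 10.1 CPM in control lungs. Rsad2 (viperin), which makes a chain-terminating nucleotide, ran the other way, at 6.69, 16.9 and 12.4 CPM in Gata4 CKO lungs against 7.00, 6.53 and 14.4 CPM in control lungs. Its neighbour Cmpk2, a nucleotide kinase that supplies it, stayed between 12.6 and 16.7 CPM in Gata4 CKO lungs and 14.9 and 17.6 CPM in control lungs. Of the remaining induced genes, Ifi35, Ifi44 and Xaf1 were highest in Gata4 CKO 1 (42.2, 18.6 and 24.9 CPM). Samd9l, a translation repressor, was lowest there, at 30.8 CPM with 57.1 and 63.1 CPM in Gata4 CKO 2 and 3, against 45.7 to 49.96 CPM in control lungs.

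**Figure D3:**
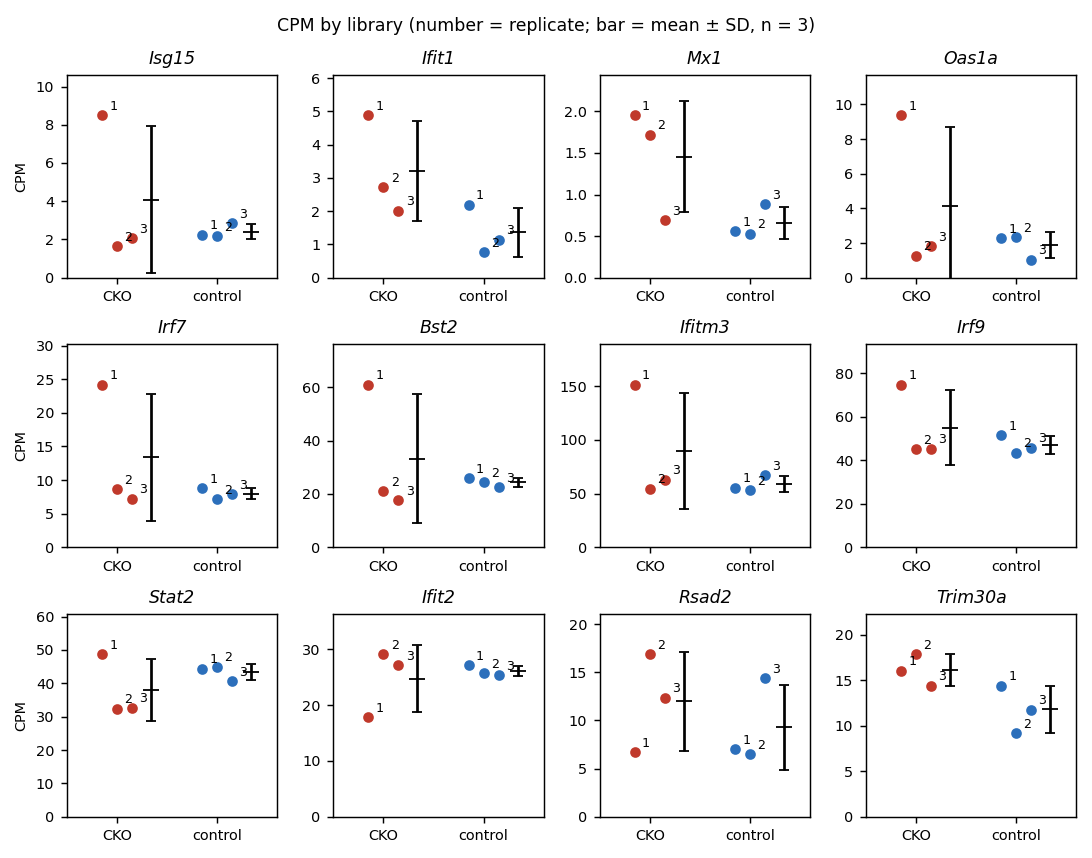
CPM of 12 members in each library, with Gata4 CKO (red) left of control (blue), replicate numbers beside the points and bars for mean ± SD (n = 3 each, bars that reach below 0 are clipped). Gata4 CKO 1 is far above the other 5 libraries for Isg15, Oas1a, Irf7, Bst2 and Ifitm3, and below them for Ifit2, while for Trim30a the Gata4 CKO libraries lie together.

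The members that were high in Gata4 CKO 1 were mostly short genes, and that library had a length trend over all genes. The median ratio of Gata4 CKO 1 to the mean of Gata4 CKO 2 and 3 was 1.27 for all tested genes with up to 1 kb of exon and 0.735 for those over 6 kb. Of the 19 members with up to 4 kb, 13 exceeded 2-fold (median ratio 2.51), and of the 19 over 4 kb, 4 did (median 1.03). The 3 members up to 1 kb (Isg15, Bst2 and Ifitm3) and the 4 from 1 to 2 kb all exceeded 2-fold, where 12.3% and 8.27% of all genes of those lengths did. Of the 8 members over 6 kb, 3 (Oas3, Oasl2 and Ifi44) exceeded it, where 0.510% of genes of that length did. With each library's length and GC trend removed, a step chosen after the data were seen, 14 of the 38 members still exceeded 2-fold, against 2.95% of all genes, and the median ratio was 1.68. Oasl1, Ifi35 and Ifi27 no longer exceeded 2-fold (1.75, 1.59 and 1.80), while Oas1a, Oas3, Oas2 and Isg15 had 4.85, 4.23, 3.97 and 3.49. Of the 6 members that were lowest in Gata4 CKO 1, Ifit2, Gbp7 and Samd9l stayed below 1 at 0.838, 0.822 and 0.853, while Herc6, Ddx58 and Dtx3l came to 1.15, 1.15 and 1.05. Ifih1 and Parp14, with ratios of 0.858 and 0.842 before the trend was removed, came to 1.357 and 1.20.

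**Figure D4:**
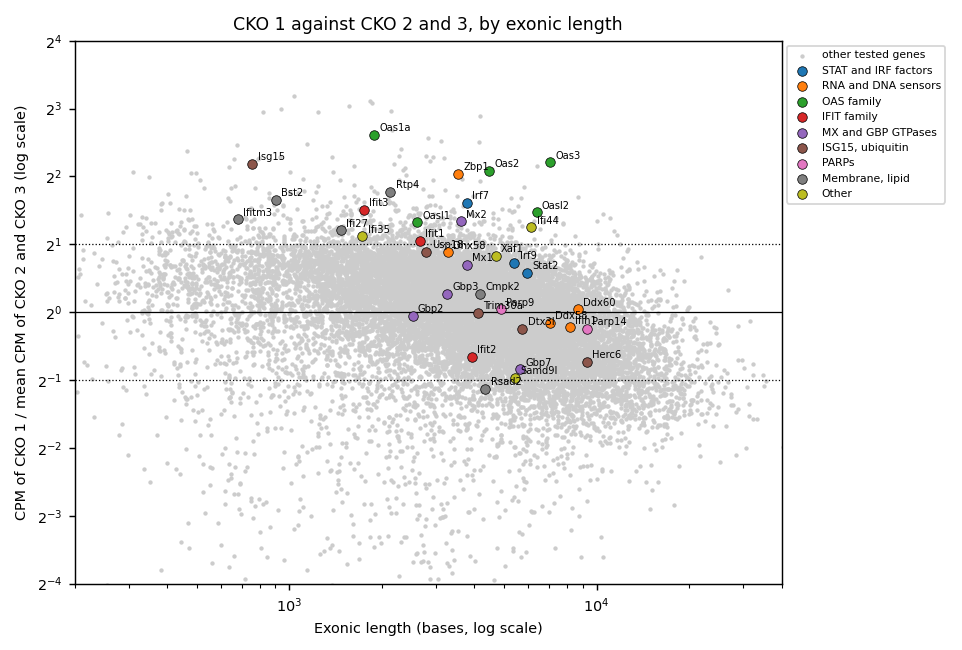
CPM of Gata4 CKO 1 divided by the mean CPM of Gata4 CKO 2 and 3 (y axis, log scale, dotted lines at 2-fold) against exonic length in bases (x axis, log scale) for tested members (colours by role) and all other tested genes (grey, with those outside the axes or without reads not drawn). The grey cloud falls with length, and 17 members lie above the upper dotted line.

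Levels between genes were compared per kilobase of exon (CPM per kb). In control lungs Ifitm3 was highest at 86.4 ± 11.2 CPM per kb, followed by Bst2 at 26.9 ± 1.87, Ifi27 at 20.001 ± 1.16 and Ifi35 at 12.6 ± 0.211 (SD, n = 3). The corresponding levels in Gata4 CKO lungs were 132 ± 79.1, 36.8 ± 26.7, 27.9 ± 14.7 and 15.6 ± 7.64 CPM per kb. At the other end of the control order were Mx1 (0.174), Zbp1 (0.138), Oas3 (0.0771) and Oas1g (0.0724). The factors Irf9 and Stat2 (8.70 and 7.30 CPM per kb in control lungs) and the sensor Ddx58 (7.39) were thus well above the classical markers Isg15, Ifit1 and Mx1 (3.20, 0.515 and 0.174).

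**Figure D5:**
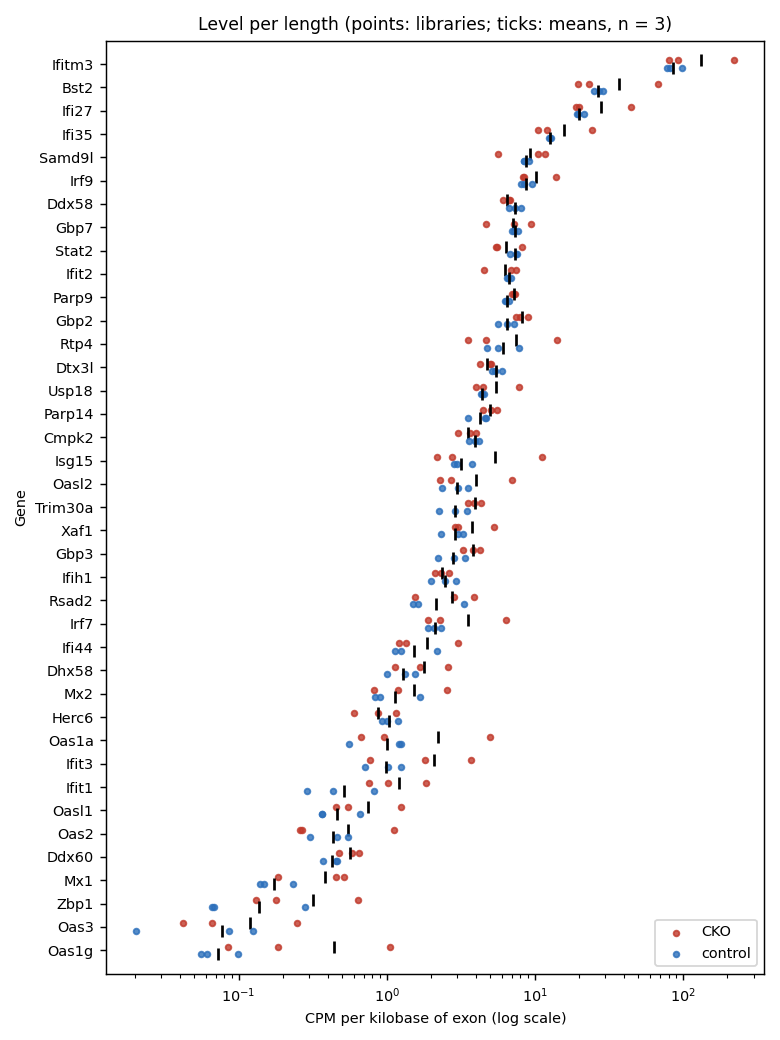
CPM per kilobase of exon (x axis, log scale) of each member in each library (points, Gata4 CKO red and above control blue, ticks for means, n = 3 each), ordered by the control mean. Members span from under 0.1 to over 100 CPM per kb, and in the upper rows 1 red point stands well to the right of the rest.

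Interferons themselves were all but absent. The 21 interferon genes together had 8 reads in the 6 libraries, none had enough for a test, and 17 of them, Ifnb1 among them, had 0 reads in every library. A count of 0 allows up to 3 reads, or 0.144 CPM of the total in Gata4 CKO 1 and 0.198 CPM in the shallowest library, counting error only. The only interferon read in Gata4 CKO 1 was 1 of Ifng. Interferon receptors and their kinases and STATs had 8 of 11 positive log2 fold changes (median 0.12), against 51.5% of all genes. In edgeR 0 passed the adjusted threshold and 0 had an unadjusted p under 0.05, against 3.77% higher and 4.91% lower over all genes. In Gata4 CKO 1, 0 of 11 exceeded 2-fold, against 3.93% of all tested genes. A count of 0 in a list as short as this and those below is near that share. Ifnar1, a receptor chain, stood at 134, 141 and 138 CPM in Gata4 CKO lungs against 137, 139 and 138 CPM in control lungs. Of 14 other sensing genes 9 were positive and 5 negative, with 0 past the adjusted threshold in edgeR, 1 higher and 1 lower at an unadjusted p under 0.05, and 0 over 2-fold in Gata4 CKO 1. Mb21d1 and Tmem173 were also on this list but were not found under those symbols, so they were not examined. Of the IRF factors outside the set 0 of 9 exceeded 2-fold in Gata4 CKO 1, with Irf8 at 54.7, 34.7 and 34.4 CPM in Gata4 CKO lungs against 33.6, 33.1 and 33.7 CPM in control lungs. Among the 11 tested brakes on the response, of which edgeR called 0 and 0 had an unadjusted p under 0.05, Socs1 and Rnaseh2c exceeded 2-fold in Gata4 CKO 1.

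Of 45 tested interferon-induced genes outside the set, 34 were positive and 11 negative (median 0.32). In edgeR 0 passed the adjusted threshold, and 6 were higher and 1 lower at an unadjusted p under 0.05, against 3.77% and 4.91% of all tested genes. In this list 6 exceeded 2-fold in Gata4 CKO 1 (Ifi27l2a, Phf11b, Slfn1, Lgals3bp, Ifi44l and Gm4951), against 3.93% of all tested genes. Ifi27l2a, a relative of Ifi27, stood at 9.43, 1.92 and 1.72 CPM in Gata4 CKO lungs against 2.15, 1.15 and 1.67 CPM in control lungs. The genes of this list with the smallest p, Slfn9, Ifitm1 and Slfn2, did not rest on Gata4 CKO 1. Their log2 fold changes were -1.53, 1.17 and 0.55 with all libraries and -1.55, 1.00 and 0.52 without it. Slfn9 stood at 11.6, 9.07 and 12.5 CPM in Gata4 CKO lungs against 40.5, 40.2 and 15.4 CPM in controls 1, 2 and 3. Control 3 thus lay near the Gata4 CKO lungs for Slfn9. Ifitm1 stood at 131, 107 and 85.2 CPM in Gata4 CKO lungs against 39.1, 35.2 and 69.5 CPM in control lungs. Of 24 tested genes of the interferon gamma response and antigen presentation, 17 were positive and 7 negative (median 0.20), with 0 past the adjusted threshold in edgeR and 1 higher at an unadjusted p under 0.05, and the 4 over 2-fold in Gata4 CKO 1 were Psmb8, Psmb9, Psmb10 and Tap1, which make and transport peptides for MHC class I. Among 10 tested NF-kappaB response genes 5 were positive and 5 negative, edgeR called 0 with 1 lower at an unadjusted p under 0.05, and 1 (Ccl2) exceeded 2-fold.

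Markers of immune cells were measured beside these values. Macrophage and monocyte markers summed to 1508, 1539 and 1514 CPM in Gata4 CKO 1, 2 and 3 and to 714, 636 and 1551 CPM in controls 1, 2 and 3. The median ratio of Gata4 CKO 1 to the mean of Gata4 CKO 2 and 3 over the 18 markers was 0.997. Of them 0 exceeded 2-fold, against 3.93% of all tested genes. Between the groups, 16 of the 18 had a positive log2 fold change (median 0.62, against 0.37 for the interferon-stimulated genes). In edgeR 0 of them passed the adjusted threshold, and 9 were higher and 0 lower at an unadjusted p under 0.05, against 3.77% and 4.91% of all tested genes. Most of the summed level came from Lyz2, a lysozyme gene, at 1102, 1097 and 1087 CPM in Gata4 CKO lungs against 381, 339 and 1177 CPM in control lungs, so control 3 was the highest library for it. Adgre1, the macrophage surface marker F4/80, stood at 15.7, 16.9 and 15.4 CPM in Gata4 CKO lungs against 10.4, 9.12 and 9.53 CPM in control lungs, where control 3 lay with the other controls and the groups did not overlap. Neutrophil markers summed to 84.6, 55.1 and 60.6 CPM in Gata4 CKO lungs and 44.1, 31.2 and 67.8 CPM in control lungs, with 1 of 8 tested over 2-fold in Gata4 CKO 1. Plasmacytoid dendritic cells are among the cells that can produce type I interferon. Their 10 markers summed to 14.5, 21.4 and 17.3 CPM in Gata4 CKO lungs against 11.04 to 13.8 CPM in control lungs, with Cd209d at 0 in every library. Of the 5 tested, 4 were positive and 1 negative. The median ratio of Gata4 CKO 1 to the mean of Gata4 CKO 2 and 3 was 0.437 for these 5. In Gata4 CKO 1, 0 of them exceeded 2-fold, against 3.93% of all tested genes. In edgeR 0 passed the adjusted threshold, and 2 were higher and 0 lower at an unadjusted p under 0.05. Those higher were Smim5, at 8.89, 8.67 and 8.45 CPM in Gata4 CKO lungs against 4.99, 5.09 and 5.70 CPM in control lungs, and Cox6a2, at 2.15, 3.64 and 1.42 CPM against 1.21, 1.06 and 1.08 CPM. The muscle genes Myh7 and Ckm were, like Cox6a2, highest in Gata4 CKO 2, at 136 and 36.3 CPM. The negative one, Siglech, had 2, 18 and 19 reads in Gata4 CKO 1, 2 and 3 and 12, 10 and 33 in the controls. Spib had 1, 8 and 29 reads in Gata4 CKO lungs and 11, 6 and 12 in control lungs. Runx2 stood at 2.54, 6.55 and 5.09 CPM in Gata4 CKO lungs against 4.71, 3.50 and 4.75 CPM in control lungs. Siglech, Spib and Runx2 were thus lowest in Gata4 CKO 1. Whether reads of the tested markers came from plasmacytoid dendritic cells or from other cells was not tested. Lymphocyte and NK cell markers summed to 12.9 to 14.9985 CPM in Gata4 CKO lungs and 8.29 to 13.9 CPM in control lungs. Red cell markers summed to 4916, 3592 and 3393 CPM in Gata4 CKO lungs and 3024 to 4483 CPM in control lungs, with the embryonic globin Hbb-y at 46.3, 2.25 and 1.92 CPM in Gata4 CKO lungs against 1.41 to 10.6 CPM in control lungs. The part of these cell types in the interferon-stimulated levels was not tested.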

How the data were processed

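RNA from whole lungs of 6 embryos was read as 1 stranded mRNA library each, per the labels' protocols. The authors deposited raw counts per Ensembl gene. STAR 2.7.10a, featureCounts 2.0.1, DESeq2 1.36.0, GRCm38 and mm10 are named in the submitters' processing notes without roles. For the annotation release and the strand setting, the sources used here say nothing. Of 55335 genes, 23377 had no symbol, and 23239 symbols came from a reference table by gene ID. In edgeR 4.0.16 (R 4.3.3), filterByExpr kept genes by a minimum count of 10 and a minimum total of 15, TMM gave the scaling, and a robust quasi-likelihood fit gave two-sided p-values, with Benjamini-Hochberg adjustment over 17075 genes and a threshold of 0.05. CPM use the TMM-scaled library sizes, and the SE is the log2 fold change divided by the square root of F. An exact permutation test of 3 against 3 libraries cannot go below p = 0.1 and was not used. The labels call the libraries biological replicates. Replicates of a group differed by more than sampling noise in each pair. The mean chi-square per gene was 117 and 128 for Gata4 CKO 1 against Gata4 CKO 2 and 3, and 12.1 between Gata4 CKO 2 and 3. It was 8.82 between controls 1 and 2, and 32.1 and 38.6 for control 3 against controls 1 and 2. DESeq2 1.42.0, limma 3.58.1 (voom, with and without quality weights), other scalings and filters, the replicate number as a block, the label number as a term and leaving out each library were tried. The pipeline was tested on simulated data.

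Exonic length and position come from GENCODE M21 on GRCm38, which gave length and GC content for 99.9% of tested genes. Length and GC trends were removed with splines of 5 degrees of freedom per library. Of the members, 5 share exon positions with another gene on the same strand and 8 on the opposite strand, and 7 share over 10% of their 50-base stretches with other genes (Ifit3, Oas1a, Oas1g, Rtp4, Gbp7, Ifitm3 and Herc6), so their reads may be split in an unknown way. The members, the pathway lists and the comparison of Gata4 CKO 1 were chosen with earlier results of these data known. Names were taken by rule from the members, Gata4, Xist, the interferon genes and the genes with the smallest p of each list (up to 3, at least 1 CPM on average). Other genes named, among them Ifnar1, Lyz2, Siglech, Cd209d and those listed as over 2-fold in Gata4 CKO 1, were chosen after their values were seen.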

Additional observations from a re-analysis of the deposited data

How the results depend on the processing

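Of the 6 libraries left out in turn, Gata4 CKO 1 changed the members' median and their count of positive values most. Single members could change more without another library: Zbp1 came to 2.21 and Rsad2 to 0.82 without control 3, Ifit1 to 1.72 without control 1 and Mx1 to 1.46 without Gata4 CKO 3. With 1 library left out, the median log2 fold change of the members ranged from -0.000275 (without Gata4 CKO 1) to 0.54, the number of positive members from 19 to 31, and the number called stayed 0. Genes called over the whole table ranged from 0 to 75 higher and 0 to 40 lower, the upper values being without Gata4 CKO 1. Quality weights in limma-voom called 2196 genes higher and 2264 lower, or 12.9% and 13.3% of all tested genes. Of the 38 tested members, 4 were called, 2 higher (Rsad2 and Samd9l) and 2 lower (Stat2 and Bst2). In that fit 18 members were positive, with a median of -0.0183. The label number as a term called 3296 higher and 4012 lower, 26 members, with a median of 0.85, and rests on 1 Gata4 CKO library. DESeq2 called 50 higher and 77 lower. The replicate number as a block called 0 genes and 0 members. The deviations of libraries with the same replicate number correlated at 0.11, -0.31 and 0.12, and those of the other pairs at -0.29 to 0.31. So few values cannot decide whether the replicate numbers pair the libraries. Other scalings, filters, a threshold of 0.10 and removal of length and GC trends called 0 members. The counts over 2-fold in Gata4 CKO 1 and with the promoter element (15 with a C added after the second GAAA) stayed within 1.5 times.

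Signs of single members reversed in these settings. Quality weights gave 0.0421 for Ifit2, -0.0260 for Ifit3, -0.15 for Isg15, -0.53 for Mx2, -0.28 for Oas1a, -0.61 for Oas2, -0.29 for Oas3, -0.34 for Oasl2, -0.11 for Irf7, -0.0811 for Irf9, -0.36 for Ifi44, -0.0792 for Ifi35, 0.0229 for Ifih1, -0.0863 for Usp18, -0.44 for Bst2, -0.55 for Rtp4, 0.0136 for Gbp7 and -0.0106 for Ifi27. The label number as a term gave -0.0148 for Rsad2, 0.13 for Stat2, 0.0945 for Cmpk2 and -0.63 for Samd9l. Limma-voom gave -0.0321 for Oas2, and removal of the length and GC trends gave 0.0773 for Ifih1. With 1 library left out, the log2 fold change ranged from -0.33 to 0.76 for Bst2, -0.29 to 0.18 for Gbp7, -0.0403 to 0.70 for Ifi27, -0.16 to 0.54 for Ifi35, -0.25 to 0.64 for Ifi44, -0.19 to 0.0877 for Ifih1, -0.20 to 0.11 for Ifit2, -0.00502 to 1.05 for Irf7 and -0.0530 to 0.37 for Irf9. It ranged from -0.36 to 1.13 for Isg15, -0.19 to 0.80 for Mx2, -0.25 to 1.58 for Oas1a, -0.73 to 0.68 for Oas2, -0.63 to 1.13 for Oas3, -0.24 to 0.72 for Oasl2, -0.54 to 0.65 for Rtp4, -0.11 to 0.35 for Samd9l and -0.0606 to 0.48 for Usp18. The cause was not tested. Members with few reads, such as Oas3, Zbp1 and Oas1g, are the least precise.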
